A study of Mus musculus with 2 samples.

Results

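The miRNA genes of heart and skeletal muscle were followed in stomach of B6NCrl mouse embryos at embryonic day 15.5. They are Mir1a-1, Mir1a-2, Mir133a-1, Mir133a-2, Mir133b, Mir206, Mir208a, Mir208b and Mir499, 9 genes chosen by name among the 1973 miRNA genes of the count tables. Of the 9, 8 were listed in both tables, and Mir1a-2 was not a listed gene. Total RNA below 30 nt was sequenced from 2 libraries. Replicate 2 came from the stomachs of 62 embryos and replicate 1 from those of 78 embryos, each a pool of both sexes. The libraries form 1 group with no second condition, so genes were compared with each other within a library, and the pools with each other. All values come from whole stomach, where fewer cells of a type and less RNA per cell cannot be told apart.

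These miRNAs are often called myomiRs, because they are transcribed in striated muscle under myogenic and cardiac transcription factors. miR-1 and miR-133 are made from shared transcripts in heart and skeletal muscle, miR-206 and miR-133b from a skeletal muscle transcript, and miR-208a, miR-208b and miR-499 from introns of myosin heavy chain genes. In mice Myh6 and Myh7 encode the cardiac heavy chains, of which Myh7 prevails in the ventricle before birth and is also made in slow skeletal fibres, while Myh7b is expressed in heart and slow muscle. The stomach wall itself is built of smooth muscle, whose main miRNAs are miR-143 and miR-145. Striated muscle lies beside the stomach in the diaphragm and, in adult mice, in the oesophagus.

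The mature arm for which each of the 5 counted genes is best known is shown here because its first bases set the family it belongs to. Sequences are from RefSeq on GRCm38.p6, 5′ to 3′, with the seed (bases 2 to 8) in capitals; RefSeq entries matched 6 of the 9 genes.
miR-206-3p: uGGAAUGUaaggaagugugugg
miR-133b-3p: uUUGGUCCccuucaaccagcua
miR-208a-3p: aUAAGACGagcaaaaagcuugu
miR-208b-3p: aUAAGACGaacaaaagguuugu
miR-499-5p: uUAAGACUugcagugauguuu
miR-208a-3p and miR-208b-3p share their seed, and miR-499-5p has the same 6 bases at positions 2 to 7. Counted from 1 at the 5′ end of miR-208a-3p, the miR-208 arms differ at 3 positions, G10A, A16G and C18U, so full-length reads of each can be told apart. The deposited counts are per gene and do not say from which arm of the hairpin a read came.

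The hairpins of the most abundant member of each branch are shown with both mature arms in capitals, since either arm adds to the count of its gene.
Mir206: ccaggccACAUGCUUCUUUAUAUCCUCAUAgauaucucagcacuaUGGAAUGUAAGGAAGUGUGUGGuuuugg
Mir208b: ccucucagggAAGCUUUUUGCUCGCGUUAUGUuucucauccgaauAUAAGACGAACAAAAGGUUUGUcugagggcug
In these coordinates (mm10, the same assembly as GRCm38) Mir206 lies on chromosome 1 from 20679010 to 20679082 on the plus strand, and Mir133b follows on the same strand from 20682769 to 20682887, 3686 bases away. Both overlap an exon of the long non-coding RNA gene Gm28653. Mir208a (chromosome 14, 54949060 to 54949142, minus strand) is in an intron of Myh6, and Mir208b (54975700 to 54975776, minus strand) is in an intron of the neighbouring Myh7. Mir499 (chromosome 2, 155622880 to 155622958, plus strand) is in an intron of Myh7b. Mir1a-1 (180389048 to 180389124) and Mir133a-2 (180398379 to 180398482) lie on the plus strand of chromosome 2, 9254 bases apart and outside any longer annotated gene. Mir133a-1 and Mir1a-2 lie 2504 bases apart in introns of Mir133a-1hg and opposite to Mib1.

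**Figure D1:**
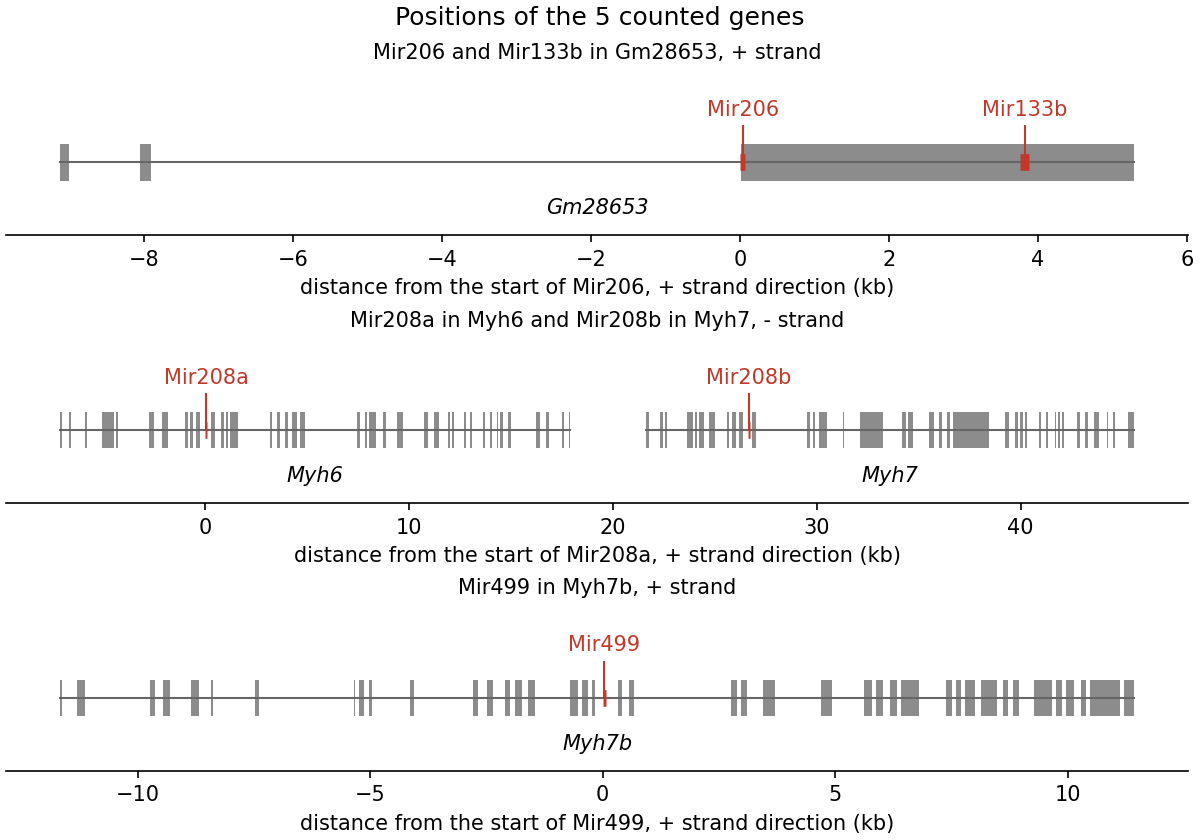
Each panel maps the hairpins of the 5 counted genes (red) on their host genes, with exons as grey boxes of all annotated transcripts, against distance in kb from the start of the first hairpin. Mir206 and Mir133b overlap exons of Gm28653, whereas Mir208a, Mir208b and Mir499 fall between exons of their myosin genes.

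Depth was similar in both libraries, and the genes listed for epithelium, forestomach epithelium, and glandular and endocrine cells were counted in each. The sense counts over all miRNA genes came to 6675498 for replicate 2 and 5988677 for replicate 1. Values are given as CPM, the number of counts in every 1000000 of that total. A count of 0 allowed up to 0.449 CPM in replicate 2 and 0.501 CPM in replicate 1; this limit (3 counts) and all intervals cover counting error only. The miR-200 genes of epithelium (5 of 5 counted) held 4.32% of the counts in replicate 2 and 4.35% in replicate 1. The forestomach epithelium genes Mir203 and Mir205 held 1.18% in replicate 2 and 1.72% in replicate 1, and the glandular and endocrine genes Mir375, Mir192 and Mir215 held 2.71% in replicate 2 and 1.61% in replicate 1.

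Of the striated muscle genes, Mir206 and Mir208b were clearly counted, Mir499, Mir208a and Mir133b were low, at 2.15 to 7.29 CPM on average, and miR-1a and miR-133a genes were at or near 0. The 8 listed genes together had 1740 counts in replicate 2 and 1186 in replicate 1, or 0.0261% (95% Wilson interval 0.0249 to 0.0273) and 0.0198% (0.0187 to 0.0210) of the sense counts. The mean share was 0.0229% ± 0.00443 (SD, n = 2). Of the 8, 5 had at least 10 counts summed over the libraries and 2 had at least 100. Among all 1973 genes, 466 had at least 10 summed counts, with a median level of 45.1 CPM, and 1247 had none in either library. Among the 726 genes with a count, Mir499 was at rank 303, Mir208a at 322 and Mir133b at 367.

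Mir206, the skeletal muscle member that helps myoblasts leave the cell cycle and differentiate, was the most abundant. It had 1279 counts in replicate 2 and 635 in replicate 1. This equals 192 CPM (95% exact interval 181 to 202) in replicate 2 and 106 CPM (97.9 to 115) in replicate 1, a mean of 149 ± 60.5 CPM (SD, n = 2). It ranked at place 177 of the 1973 genes by mean CPM, and its intervals in the pools did not overlap.

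Mir133b, annotated downstream within the same host gene Gm28653, was far lower than Mir206. Its miRNA shares the functions of miR-133, which acts on myoblast proliferation and fibre genes. Mir133b had 12 counts in replicate 2 and 15 in replicate 1, or 1.80 CPM (0.929 to 3.14) and 2.50 CPM (1.40 to 4.13), with a mean of 2.15 ± 0.50 CPM. Within a library, Mir206 exceeded it 107-fold in replicate 2 (log2 6.74, 95% exact interval 5.93 to 7.69) and 42.3-fold in replicate 1 (log2 5.40, 4.67 to 6.25). Mir133b and Mir206 differ in how far their sequences are shared with other hairpins. The first 21 bases of the 22-base miR-133b-3p arm (hairpin bases 66 to 86) are identical to a run in both miR-133a hairpins, and only its last base sets it apart. Reads that match several places are not in the gene counts, so the level of Mir133b may be too low, and how many of its reads were set aside was not tested. Mir206 shares no run of 20 bases or more with any hairpin at another locus. What sets the gap between Mir206 and Mir133b was not tested.

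Mir208b, the miRNA of the Myh7 intron, was the second most abundant member. It had 400 counts in replicate 2 and 445 in replicate 1, or 59.9 CPM (54.2 to 66.1) and 74.3 CPM (67.6 to 81.5). Its mean of 67.1 ± 10.2 CPM placed it at rank 215. Unlike Mir206, it differed little between the pools.

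Mir208a, the miRNA of the Myh6 intron and known from studies of mouse heart for its part in stress-dependent growth, had 13 counts in replicate 2 and 35 in replicate 1. These are 1.95 CPM (1.04 to 3.33) and 5.84 CPM (4.07 to 8.13), a mean of 3.90 ± 2.76 CPM. Mir208b therefore made up 96.9% of the 413 miR-208 counts in replicate 2 (95% exact interval 94.7 to 98.3) and 92.7% of 480 in replicate 1 (90.0 to 94.9). The excess was 30.8-fold and 12.7-fold. Neither hairpin shares a run of 20 bases with another locus; the longest run between them is 10 bases.

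Mir499, the miRNA of Myh7b, which in mouse acts with miR-208b on slow fibre genes, had 36 counts in replicate 2 and 55 in replicate 1. Its levels were 5.39 CPM (3.78 to 7.47) and 9.18 CPM (6.92 to 12.0), a mean of 7.29 ± 2.68 CPM. Mir208b exceeded it 11.1-fold in replicate 2 and 8.09-fold in replicate 1.

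Ordered by level, Mir206 stood above Mir208b and Mir208b above Mir499 in both pools, with no overlap between the values of neighbours. The values of Mir499 and Mir208a overlapped across the pools, although Mir499 was the higher in each (2.77-fold in replicate 2 and 1.57-fold in replicate 1, with a log2 interval of 0.01 to 1.31 in replicate 1). Mir208a and Mir133b also overlapped, with 13 against 12 counts in replicate 2.

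**Figure D2:**
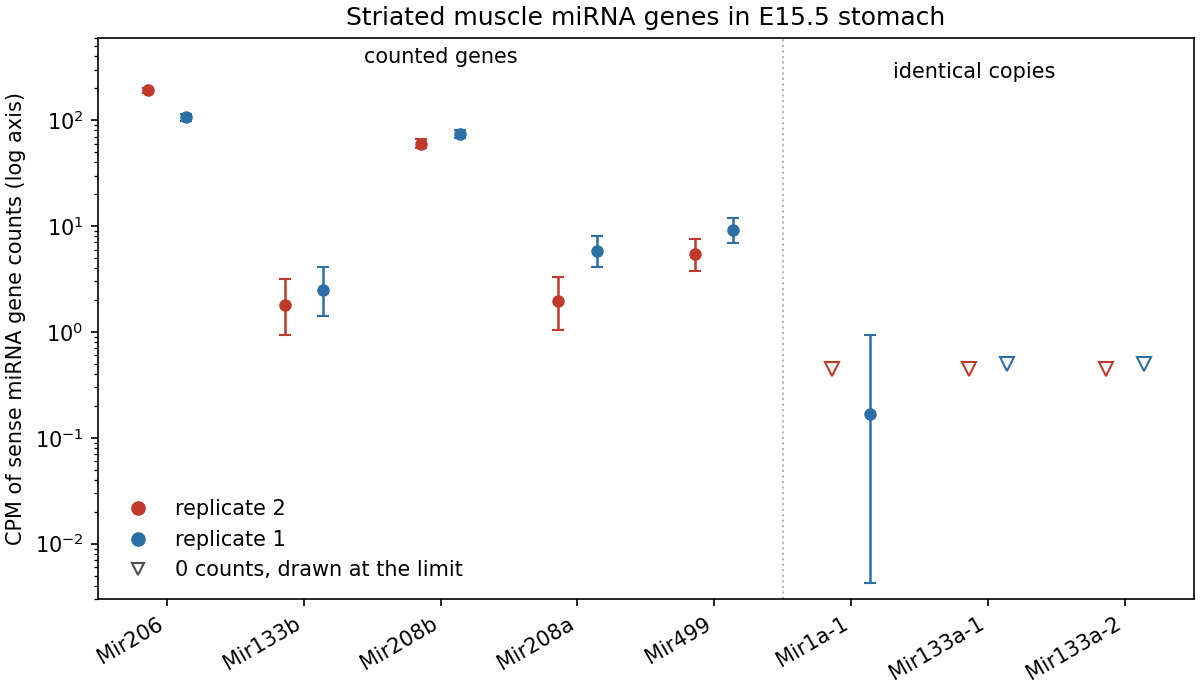
CPM on a log axis for each listed gene in replicate 2 (red) and replicate 1 (blue), with 95% exact intervals; open triangles mark 0 counts at the limit of 3 counts. Mir206 and Mir208b sit well above the other genes in both pools, and Mir1a-1, Mir133a-1 and Mir133a-2 are at 0 apart from the 1 count of Mir1a-1 in replicate 1.

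The miR-1a and miR-133a genes were hardly counted. Mir1a-1 had 0 counts in replicate 2 and 1 in replicate 1, and Mir133a-1 and Mir133a-2 had 0 in both libraries. miR-1 and miR-133a are the main miRNAs of heart and skeletal muscle elsewhere, and these values cannot be read as their absence here. The hairpins of Mir1a-1 and Mir1a-2 share an identical run of 28 bases, and those of Mir133a-1 and Mir133a-2 a run of 31 bases, both longer than a mature miRNA. In the Mir1a-1 hairpin the run covers bases 45 to 72 and lies outside the 5p arm (bases 10 to 32), so of its arms the 5p arm is the one that differs from the copy.
miR-206-5p: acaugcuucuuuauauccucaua
miR-1a-1-5p: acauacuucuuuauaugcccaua
These 5p arms are shown because no 3p arm of Mir1a-1 was available to compare with Mir206. Counted from 1 at the 5′ end of miR-206-5p, they differ at G5A, C17G and U19C, and G5A lies in the seed of the 5p arms. This says nothing about the seeds of the 3p arms, which set the family of miR-206-3p and were not compared. The longest common run of the Mir206 and Mir1a-1 hairpins is 13 bases. It covers bases 46 to 58 of the Mir1a-1 hairpin, outside the 5p arm and within the run shared with Mir1a-2.

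Reads matching several places numbered 3406967 in replicate 2 and 2946663 in replicate 1, or 27.0% and 25.5% of all reads. That is 1958 and 2485 times the counts of the 8 listed genes. Reads of miR-1a and miR-133a could be among them, and whether they are was not tested. Among listed genes with a symbol, 929 had a hairpin sharing 20 or more bases with one at another locus. Of these, 84.6% had 0 counts in both libraries, against 39.8% of the 965 genes without such a run. The groups were not matched in any other trait, and why their genes had 0 counts was not tested. Mir1a-1 had 1 summed count and Mir133a-1 and Mir133a-2 had 0. Leaving them out therefore could not move the share of the striated muscle genes from 0.0229%, and says nothing about reads left out.

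Set beside the smooth muscle genes, the counts of the striated muscle genes were minor. These counts may lack reads of miR-1a and miR-133a that match several places. Mir143 had 181344 CPM in replicate 2 and 175503 CPM in replicate 1, and Mir145a had 2054 and 2921 CPM. The smooth muscle genes exceeded the 8 listed striated muscle genes 704-fold in replicate 2 and 901-fold in replicate 1 (log2 9.46 and 9.82; mean 9.64 ± 0.25, SD, n = 2). Without Mir143 the mean log2 excess was 3.43. Mir145a alone was 10.7-fold above Mir206 in replicate 2 and 27.5-fold in replicate 1.

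**Figure D3:**
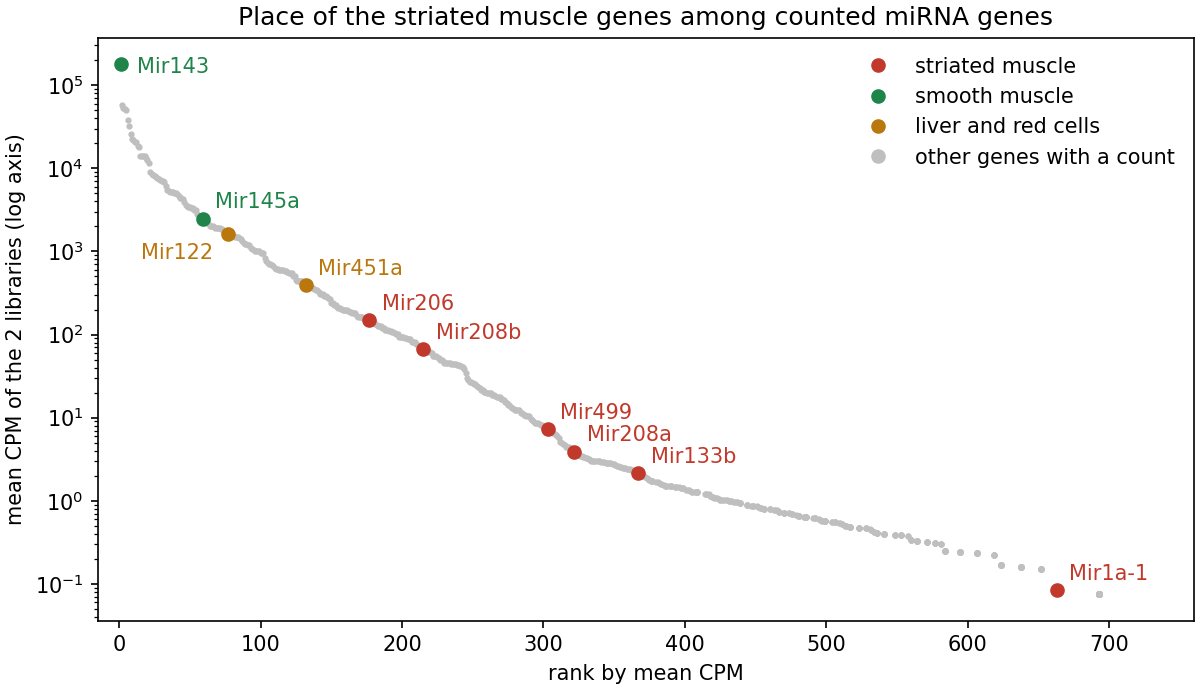
Mean CPM on a log axis against rank for all miRNA genes with a count, with striated muscle genes in red, smooth muscle genes in green and liver and red cell genes in orange. Mir143 is at rank 1 and Mir145a at rank 59, above Mir206 at 177 and Mir208b at 215.

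The make-up of the striated muscle counts differed between the pools. Mir206 was 73.5% of them in replicate 2 (95% exact interval 71.4 to 75.6) and 53.5% in replicate 1 (50.7 to 56.4), while Mir208b was 23.0% and 37.5%. Mir206 and Mir133b together exceeded the myosin-embedded genes Mir208a, Mir208b and Mir499 by 2.88-fold in replicate 2 (1291 against 449 counts; log2 1.52, 1.37 to 1.68) and by 1.21-fold in replicate 1 (650 against 535 counts; log2 0.28, 0.11 to 0.45). The intervals did not overlap and do not depend on the library total. The mean was 0.90 ± 0.88 on the log2 scale (SD, n = 2), so the SD between the pools was nearly as large as the mean. The ratio rests on Mir206 and Mir208b: without Mir206 it turned to a mean log2 of -5.19, and without Mir208b it was 3.79.

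**Figure D4:**
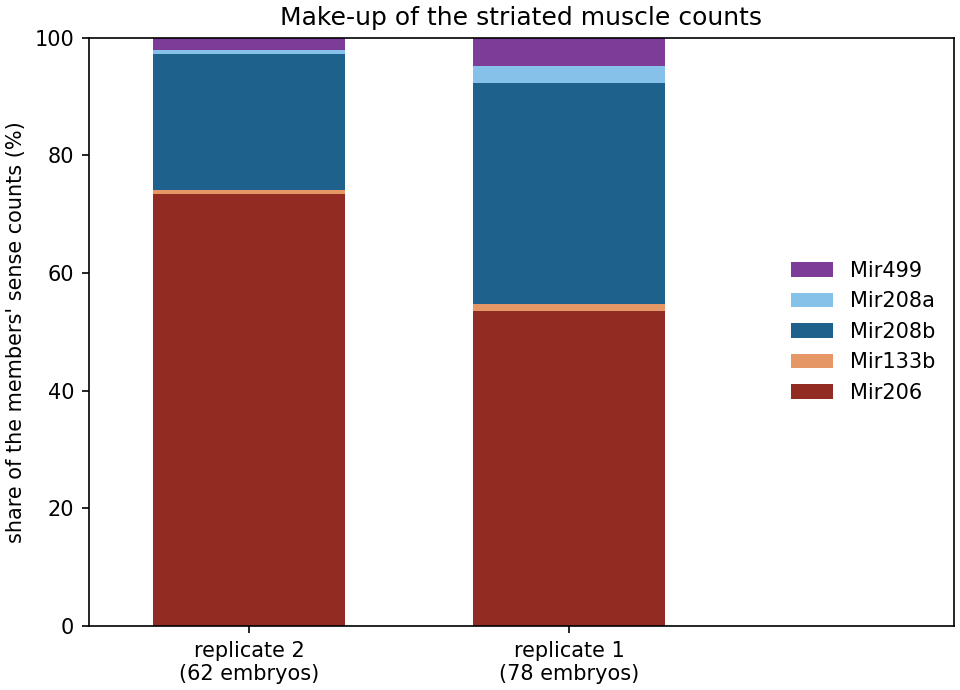
Stacked bars give the share of each of the 5 counted genes, in percent of the sense counts of the listed striated muscle genes in replicate 2 (left) and replicate 1 (right); the 1 count of Mir1a-1 is not drawn. Mir206 takes 73.5% in replicate 2 and 53.5% in replicate 1, and the 3 myosin-embedded genes take most of the rest.

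Between the pools, Mir206 was higher and the myosin-embedded genes lower in replicate 2, but by the test used only Mir208a passed. Each of the 466 genes with at least 10 summed counts was compared by a two-sided exact binomial test. A gene was called where its p, adjusted by Benjamini-Hochberg over all 466, was under 0.05 and its log2 ratio on the scale of CPM + 1 was at least 1 in size. The test compares these libraries by counting error, not conditions. Of all genes tested, 3 were called higher in replicate 2 (0.644%) and 24 lower (5.15%), 27 in all (5.79%), and the median log2 ratio was -0.11, replicate 2 over replicate 1. Of the 5 striated muscle genes tested, 0 were called higher and 1 was called lower; 1 ratio was above 0 and 4 below, with a median of -0.33. Of all 466 genes, 171 ratios were above 0 and 295 below.

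Mir208a was lower in replicate 2 by a log2 ratio of -1.22 (95% exact interval of the counts -2.63 to -0.63), with an adjusted p of 0.00119 by the exact binomial test. The call rests on 48 counts. It was lost with 5 CPM added in place of 1 (log2 -0.64) and in edgeR's exact test, which takes the typical difference between the pools as spread (adjusted p = 0.386; range over all alternatives 0.00117 to 0.386). Mir499 had a log2 ratio of -0.67 (-1.42 to -0.14) and Mir208b one of -0.31 (-0.51 to -0.11), under the fold limit. Mir133b stood at -0.33, with an interval of -1.70 to 0.72 that includes 0.

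Mir206 had a log2 ratio of 0.85 (0.72 to 0.99), with an adjusted p of 5.99e-35 by the exact binomial test and under the fold limit. At an adjusted p alone, 46.4% of all tested genes differed, 13.1% higher and 33.3% lower in replicate 2; of the 5 striated muscle genes, 1 was higher (Mir206) and 3 were lower (Mir208a, Mir208b and Mir499). The other scalings, edgeR's TMM and DESeq2 size factors, raised all ratios by 0.16 before 1 CPM was added. On the scale of CPM + 1 low genes rose by less, as Mir133b did from -0.33 to -0.22 with TMM. These scalings gave 6 higher and 16 lower genes in place of 3 and 24. Mir206 then stood at 1.00 and was called, with Mir208a still called at -1.10. Under the same scalings Mir208b and Mir499 no longer passed at an adjusted p alone (0.206 and 0.0935 with TMM, 0.221 and 0.115 with DESeq2 size factors, by the exact binomial test). In edgeR's exact test Mir206 did not pass (adjusted p = 0.882; range over all alternatives 7.9e-49 to 0.882). That test called 4 genes (0.858%), none of them a striated muscle gene. Relative to the median of all tested genes, Mir206 was at 0.96, Mir208b at -0.19, Mir133b at -0.21, Mir499 at -0.56 and Mir208a at -1.10.

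**Figure D5:**
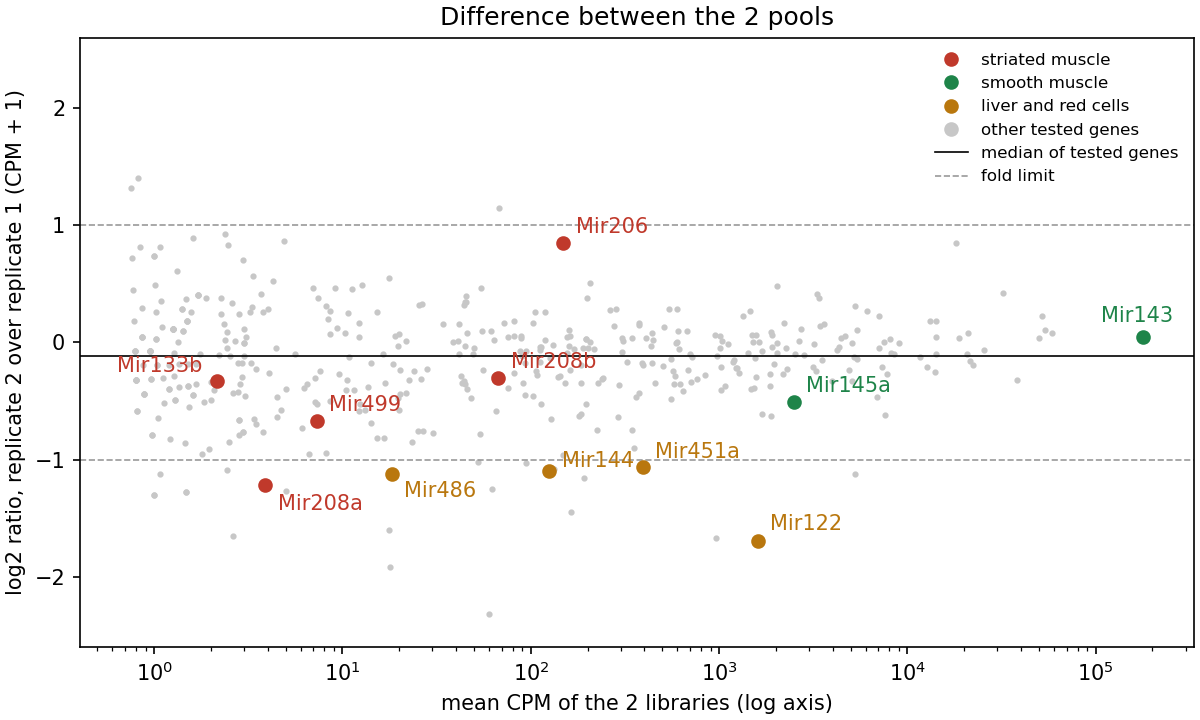
Log2 ratio of replicate 2 over replicate 1 (CPM + 1) against mean CPM on a log axis for genes with at least 10 summed counts, with the median of tested genes (black line) and the 2-fold limit (dashed). Mir206 at 0.85 lies near the upper edge of the cloud, and Mir208a at -1.22 lies under the lower limit with the liver and red cell genes.

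Markers of liver and blood also moved between the pools. Mir122, the main hepatocyte miRNA, had 757 CPM in replicate 2 and 2445 CPM in replicate 1 (log2 ratio -1.69), and was called lower. All 3 red cell genes were called lower in replicate 2: Mir451a (254 against 531 CPM), Mir144 (79.7 against 171 CPM) and Mir486 (11.1 against 25.4 CPM). Their summed share was 0.0345% for replicate 2 and 0.0727% for replicate 1. The myosin-embedded genes were lower in the same pool and Mir206 was higher, but only Mir208a of these was called. Mir208b held most of the myosin-embedded counts and stood at -0.31, beside a median of -0.11 for all tested genes. The part of liver and blood in the differences of the striated muscle genes was not tested. The smooth muscle genes were called in neither direction: Mir143 stood at 0.05 and Mir145a at -0.51 on the log2 scale.

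The 2 genes next above Mir206 in mean CPM were Mir32 (156 CPM) and Mir148b (152 CPM), and the 2 next below it Mir30b (148 CPM) and Mir500 (144 CPM). For Mir208b these were Mir30c-1 (67.9 CPM) and Mir181a-2 (67.5 CPM) above and Mir3102 (65.5 CPM) and Mir668 (63.5 CPM) below. By likeness of the log2 ratio over the 2 libraries, among 299 genes with at least 100 summed counts, Mir375 (0.85), Mir128-2 (0.55) and Mir181a-2 (1.15) were closest to Mir206. Only 3 of the 299, Mir206 included, had a ratio as high as that of Mir206, the others being Mir375 and Mir181a-2. Closest to Mir208b, at -0.31, were Mir667 (-0.30), Mir188 (-0.31) and Mir185 (-0.31). With 2 libraries this likeness is 1 difference per gene.

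miRNAs that act in myogenesis but are expressed far beyond muscle held a far larger share of the counts than the striated muscle genes, most of it from a few genes. Reads that match several places are left out on both sides, and those of miR-1a and miR-133a may be among them. Of 28 such genes, 26 were listed, and they held 8.75% of the counts in replicate 2 and 8.16% in replicate 1. The highest were Mir26b with 36995 CPM in replicate 2 and 27636 CPM in replicate 1, Mir322, which with Mir503 acts on cell cycle exit (19898 and 21354 CPM), Mir23a (13735 and 14700 CPM) and Mir214, which acts on the repressor Ezh2 in myoblasts (6949 and 7194 CPM). The others were lower, down to 0.475 CPM on average for Mir29b-1, and 12 of the 26 lay below the mean level of Mir206, against 14 above it. Of 24 tested, 1 was called higher in replicate 2, Mir181a-2 (624 against 249 counts, log2 1.15), and 1 lower, Mir486 (74 against 152 counts, log2 -1.13), which is also one of the red cell genes. Their median log2 ratio was -0.29, beside -0.11 for all tested genes. Mir181a-1 encodes the same main mature arm as Mir181a-2, so reads shared by both may be missing from its count.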

How the data were processed

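Whole-number read counts per miRNA gene were deposited by the authors, 1 table per library, on assembly mm10 with GENCODE M4, per the deposited description files. What aligned and counted the reads is not given in the sources used here. No table has a header line. In every gene row the first count is the sum of the other 2, of which the first was read as the sense strand and used here. Lines naming no gene (unmapped 16.2% and 18.0% of reads in replicates 2 and 1, multi-mapping 27.0% and 25.5%, outside genes 2.26% and 2.92%) were left out of totals and tests. Symbols were matched by identifier to GENCODE M21 on the same assembly (1894 of 1973; the other 79 stayed unnamed). The labels number the libraries as biological replicates from pools of different size.

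CPM, SD over the pools, exact Clopper-Pearson and Wilson intervals, and the exact binomial test between the pools (at least 10 summed counts, 1 CPM added) were computed. The test was run on simulated data first. The simulated counts held counting error only, with no further spread between pools, so they do not check the test against such spread. Alternatives covered denominators, strand, members, scaling, count minimum, fold limit, pseudocount, edgeR's exact test and each replicate alone. Copies were measured as identical runs of at least 20 bases between GENCODE M21 hairpins at different loci, on either strand. The members and lists were chosen with earlier results of these data known. Named were all members, the smooth muscle, liver and red cell genes, the 4 highest and any called myogenesis regulators, and, for members with at least 100 summed counts, the 2 nearest genes above and below in level and the 3 nearest in ratio. Tools were edgeR 4.0.16 and DESeq2 1.42.0 under R 4.3.3, and scipy 1.17.1, numpy 2.4.6, matplotlib 3.10.9 and pandas 2.3.3 under Python 3.11.15.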

Additional observations from a re-analysis of the deposited data

Results flagged for a closer look

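The gene counts leave out reads that match several places. Such reads numbered 3406967 in replicate 2 and 2946663 in replicate 1 over the whole library. Which miRNAs they come from was not tested, so they show nothing about the striated muscle genes.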

How the results depend on the processing

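The share of the striated muscle genes, 0.0229%, was 0.0279% with Mir143 out of the total and 0.0120% of all reads, by construction of the denominator. It ranged from 0.0198% to 0.0261% without either replicate. The mean log2 ratio of skeletal over myosin-embedded genes, 0.90, became -5.19 without Mir206 and 3.79 without Mir208b, and ranged from 0.28 to 1.52 without either replicate. The share of Mir208b in the miR-208 counts ranged from 92.7% to 96.9% and the smooth over striated log2 ratio from 9.46 to 9.82 without either replicate; without Mir143 that log2 ratio was 3.43. Between the pools 27 genes were called; asking for 100 summed counts left 16, adding 5 CPM left 13, edgeR's exact test left 4 and dropping the fold limit gave 216, with 22 to 31 in the other settings. The count minimum tests fewer genes, and edgeR's exact test counts the difference between the pools as error. Under all alternatives run, no ratio of the 5 tested striated muscle genes changed sign. Mir206 was called in 3 of 9 alternatives and Mir208a in 6 of 8. Mir208b and Mir499 were called with no fold limit alone, and Mir133b in none. No paired analysis was possible because both libraries belong to 1 group, and the test between the pools needs both replicates. Depth limits Mir133b, Mir208a and Mir499, each under 100 summed counts.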

Other observations

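Mir1b lies opposite Mir1a-2 and overlaps it. It had 7 sense and 4 opposite-strand counts in replicate 2 and 8 sense and 2 opposite-strand counts in replicate 1. Of the other members, Mir1a-1 had 1 opposite-strand count in replicate 1 and the remaining listed genes had none in either library. The 1679 mature miRNAs of the RefSeq table lack the 3p arm of Mir1a-1 and any entry for Mir1a-2. The miR-1a 3p arms are therefore outside the search for shared seeds, which may miss sharers of the miR-206-3p seed. By hairpin, Mir1a-1 and Mir1a-2 each share a run of 13 bases with Mir206. Among the mature miRNAs present, miR-6349 and miR-6382 share the seed of miR-206-3p, and Mir6349 and Mir6382 had 0 counts in both libraries.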
